A study of Mus musculus with 6 samples.

Results

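The immunity-related GTPases (IRG proteins) are interferon-inducible GTPases that mouse cells use against microbes living inside vacuoles. The 7 genes described here were chosen by symbol, from the 23034 genes of the deposited table. They are the regulatory class Irgm1, Irgm2 and Igtp (also named Irgm3) and the effector class Iigp1 (Irga6), Tgtp1, Tgtp2 (the Irgb6 pair) and Ifi47 (Irgd). RNA was sequenced from wild-type mouse bone marrow-derived macrophages grown with 10 ng/ml M-CSF and polarised for 24 hours with 20 ng/ml IL-4 (M2 macrophages), then reseeded. Whether the IL-4 was washed out is not stated. Controls received PBS and the other group received SA@BATMAN5, each for 24 hours, with 3 libraries per group. The title of the series ties the compound to tuftsin clusters aimed at Fc gamma receptors, and the labels give neither its dose nor the strain, sex or age of the mice. Libraries held 38740103 to 47018154 counts in the controls and 29739263 to 37212125 with SA@BATMAN5, so depth separated the groups. The labels do not say whether replicates were separate cultures or animals, so the p-values speak for the scatter of these libraries alone, and that scatter may be technical.

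Effector IRG proteins bind GTP, assemble on the membrane of a parasite or bacterial vacuole and break it open. The regulatory IRGM proteins sit on the membranes of the cell's own organelles, where they hold the effectors in the inactive, GDP-bound state. In mouse cells transcription of the family is switched on by interferon. Promoter elements known from interferon-inducible genes are the gamma-activated sequence (GAS) and the interferon-stimulated response element (ISRE), the latter bound by interferon regulatory factors (IRF proteins).

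Promoter sequences are shown because they let the members be grouped by something other than their levels. RefSeq's promoter table (GRCm38.p6) held 6 of the 7 members, with 250 bases before and 50 after the annotated start. Iigp1 was not among them. Both strands were searched for the GAS letters TTCNNNGAA and the ISRE letters GAAANNGAAA. The 100 bases before each start are printed 5′ to 3′ on the strand of the gene, with GAS and ISRE matches in capitals. The windows are chr11:48871421-48871520 (minus strand) for Irgm1, chr11:58214877-58214976 (plus) for Irgm2, chr11:58199456-58199555 (plus) for Igtp, chr11:48992247-48992346 (minus) for Tgtp1, chr11:49064213-49064312 (minus) for Tgtp2 and chr11:49076487-49076586 (plus) for Ifi47.
Irgm1: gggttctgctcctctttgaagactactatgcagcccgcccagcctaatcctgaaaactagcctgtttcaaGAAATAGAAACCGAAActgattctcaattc
Irgm2: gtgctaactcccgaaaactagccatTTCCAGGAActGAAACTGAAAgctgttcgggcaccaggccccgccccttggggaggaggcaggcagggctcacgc
Igtp: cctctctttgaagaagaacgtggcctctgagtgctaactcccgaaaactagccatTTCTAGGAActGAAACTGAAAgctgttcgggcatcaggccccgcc
Tgtp1: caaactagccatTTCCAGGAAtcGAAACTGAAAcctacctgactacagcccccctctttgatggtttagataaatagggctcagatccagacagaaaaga
Tgtp2: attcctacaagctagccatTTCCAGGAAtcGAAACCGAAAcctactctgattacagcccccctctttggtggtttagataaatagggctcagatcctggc
Ifi47: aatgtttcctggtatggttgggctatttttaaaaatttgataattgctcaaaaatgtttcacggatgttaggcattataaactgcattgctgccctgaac

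Irgm2, Igtp, Tgtp1 and Tgtp2 each held a GAS followed after 2 bases by an ISRE. Irgm1 held overlapping ISRE matches and no GAS, and the Ifi47 window held neither set of letters. Of all 32851 promoter windows of this length, 8.30% held the GAS letters and 3.44% the ISRE letters. The joined arrangement, a search added after these sequences had been seen, was found in 5 windows of 27025 genes. Those were the 4 members just named and Gm12185, which lies between Irgm1 and Tgtp1 on chromosome 11. Over their 300-base windows, Tgtp1 and Tgtp2 aligned along 162 positions with 91.4% identical, and Igtp and Irgm2 along 270 positions with 90.4% identical. These matches are a description of letters, and no binding was measured.

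All 7 members rose with SA@BATMAN5 at an adjusted p under 0.05 (edgeR's quasi-likelihood test on counts, Benjamini-Hochberg over all 13474 tested genes). Over all tested genes 29.5% were called higher, 28.7% lower, and 4.46% higher by at least 4-fold. Each of the 7 rose by more than 4-fold. None of them overlapped between the groups in CPM, as 32.1% of tested genes did not while being higher with SA@BATMAN5. The median log2 fold change of the members was 4.04, against -0.0041 over all tested genes. Levels are given as FPKM, the authors' fragment values scaled for transcript length and library size. CPM are counts scaled to TMM-adjusted library totals, without regard to length, and are given as mean ± SD (n = 3 libraries). Log2 fold changes come from the count fit, and a positive one means higher with SA@BATMAN5.

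Among the regulatory members, Irgm1, which guards lysosomes, the Golgi and mitochondria, was the most abundant. Its FPKM was 14.7, 14.0 and 14.6 in the control libraries and 115, 106 and 105 in the SA@BATMAN5 libraries. Every treated library stood far above every control. In CPM it went from 36.3 ± 0.778 to 299.6 ± 16.4, a log2 fold change of 3.04 ± 0.04 (SE, adjusted p 7.09e-16, edgeR). Ranked by FPKM among tested genes in each library, it stood between places 3496 and 3650 in the controls and between 521 and 582 with SA@BATMAN5.

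Irgm2, a Golgi-associated regulator, had FPKM values of 3.23, 3.46 and 3.33 in the controls and 22.7, 23.2 and 22.2 after treatment. The groups did not overlap, and the treated libraries lay close together. Its CPM went from 13.6 ± 0.445 to 97.3 ± 0.925 (log2 fold change 2.84 ± 0.05, adjusted p 2.10e-15, edgeR). Igtp, the regulator found at the endoplasmic reticulum, had FPKM values of 5.28, 4.74 and 4.31 in the controls and 28.5, 26.6 and 27.3 with SA@BATMAN5. Here too all treated libraries were above all controls. Its CPM went from 11.2 ± 1.05 to 68.1 ± 2.88, the smallest fitted change of the 7 (log2 fold change 2.61 ± 0.07, adjusted p 2.97e-13, edgeR).

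Among the effectors, Ifi47 was already present before treatment and reached the second highest level of the family. Its FPKM was 4.98, 4.77 and 4.60 in the controls and 73.7, 74.7 and 71.5 with SA@BATMAN5. No treated library came near a control. The CPM went from 9.25 ± 0.413 to 151.9 ± 1.89 (log2 fold change 4.04 ± 0.05, adjusted p 7.21e-17, edgeR).

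The other effectors started lower. Iigp1, which loads onto the vacuole of Toxoplasma, had 7, 17 and 4 counts in the control libraries and 978, 593 and 888 counts with SA@BATMAN5. Its FPKM was 0.0384, 0.114 and 0.0171 in the controls and 7.45, 5.83 and 6.74 in the treated libraries. The controls differed among themselves more than for any other member, with replicate 2 the highest, and all lay far below the treated libraries. The log2 fold change was 6.83 ± 0.38 (adjusted p 1.59e-11, edgeR). It was 7.66 without control replicate 2, 6.63 without control replicate 1 and 6.42 without control replicate 3. The ratio of summed counts, scaled by library size, was 117 with an exact 95% counting interval of 80.9 to 177. Counting intervals leave out all other error, because several reads can stem from 1 molecule.

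Tgtp1 and Tgtp2, effectors that also coat parasite vacuoles, rose by similar factors from different levels. Tgtp1 had FPKM values of 0.114, 0.160 and 0.120 in the controls and 7.06, 6.42 and 6.16 after treatment. Tgtp2 had 0.459, 0.432 and 0.476 in the controls and 21.04, 18.5 and 19.0 after treatment. For both genes every treated library was above every control. The log2 fold changes were 5.77 ± 0.19 for Tgtp1 (adjusted p 4.39e-13, edgeR) and 5.57 ± 0.11 for Tgtp2 (adjusted p 3.00e-15).

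**Figure D1:**
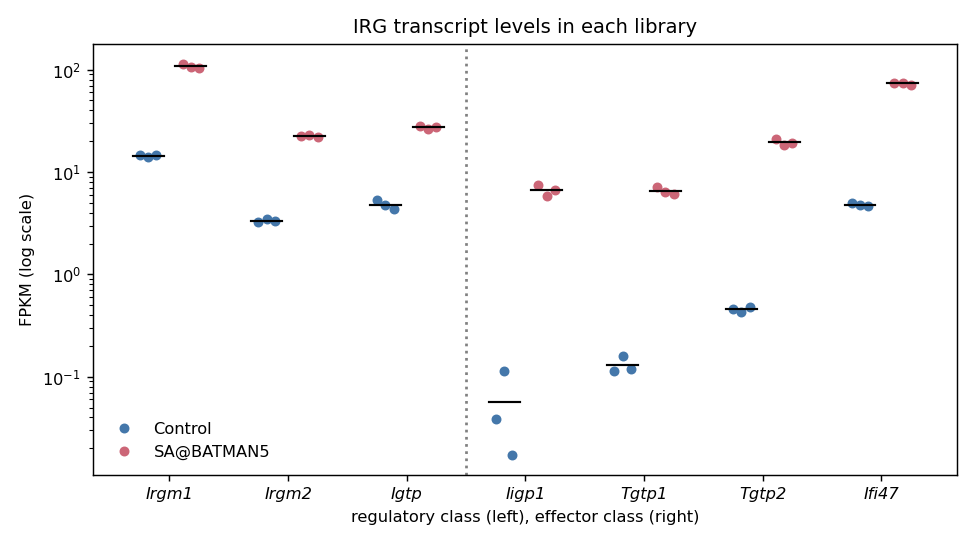
FPKM of each IRG member (log axis) in the 3 control and 3 SA@BATMAN5 libraries, with points for libraries and black lines for group means. The regulatory class is left of the dotted line and the effector class right of it, and in none of the 7 genes do the groups overlap.

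The reads of Tgtp1 and Tgtp2 cannot be fully told apart. In the GENCODE M21 transcripts, 70.3% of the 100-base stretches of Tgtp1 occur unchanged in Tgtp2, and 76.8% of those of Tgtp2 in Tgtp1. How the authors' counting divided shared reads is not given in the sources used here. Tgtp2 held 80.6%, 72.2% and 78.7% of the counts of the pair in the controls and 74.6%, 73.8% and 75.1% with SA@BATMAN5. The exact 95% counting intervals of the controls, which lay between 60.9% and 88.9%, each contained all treated shares. With the pair summed into 1 gene, the log2 fold change was 5.62 (adjusted p 1.90e-15, edgeR). Between Igtp and Irgm2 the shared part was smaller, at 5.16% of Igtp's 100-base stretches and 11.8% of its 50-base stretches. Irgm1, Iigp1 and Ifi47 shared no 100-base stretch with the transcripts of the other IRG genes searched. At 50 bases Iigp1 shared 1.51% of its stretches.

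The order of levels changed in part between the groups. In the controls the mean FPKM ran from Irgm1 (14.5 ± 0.419) through Ifi47 (4.78 ± 0.186), Igtp (4.77 ± 0.485), Irgm2 (3.34 ± 0.111) and Tgtp2 (0.456 ± 0.0218) to Tgtp1 (0.131 ± 0.0253) and Iigp1 (0.0565 ± 0.0509). Ifi47 and Igtp overlapped there, and so did Tgtp1 and Iigp1, while all other neighbours in the order were separate. With SA@BATMAN5 the means were 108.6 ± 5.33 for Irgm1, 73.3 ± 1.65 for Ifi47, 27.4 ± 0.960 for Igtp, 22.7 ± 0.486 for Irgm2, 19.5 ± 1.35 for Tgtp2, 6.67 ± 0.812 for Iigp1 and 6.55 ± 0.465 for Tgtp1. Iigp1 and Tgtp1 again overlapped and all other neighbours were separate, Ifi47 now standing clear of Igtp. FPKM and counts did not keep a fixed ratio, most of all for the rarest members. Counts scaled by library total and divided by FPKM give a length in kilobases. It ran from 3.42 to 4.97 for Iigp1 over the 6 libraries, against 1.97 to 2.04 for Ifi47. For Irgm1, the most abundant member, it was 2.55 to 2.61 in the controls and 2.65 to 2.71 with SA@BATMAN5, without overlap.

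Among the 7 members the effectors took a larger part of the summed FPKM after treatment, and this depends on which IRG genes are summed. Summed FPKM of all members went from 28.0 ± 0.742 to 264.7 ± 9.17, a ratio of 9.46. The regulatory sum went from 22.6 ± 0.601 to 158.7 ± 6.21, a ratio of 7.03, and the effector sum from 5.43 ± 0.190 to 106 ± 2.99, a ratio of 19.5. Regulatory transcripts made up 80.6%, 80.2% and 81.0% of the members' FPKM in the controls and 60.3%, 59.7% and 59.9% with SA@BATMAN5. The share was thus lower in 3 of 3 treated libraries than in any control, by a mean of 20.7 percentage points (two-sided exact permutation p = 0.1, and no arrangement of 6 libraries in this design can go lower). Irgm1 went from 51.6% ± 1.42 to 41.0% ± 0.591 of the summed FPKM, while Ifi47 went from 17.1% ± 0.290 to 27.7% ± 0.882 and Tgtp2 from 1.63% ± 0.0892 to 7.37% ± 0.289. Without Tgtp1 and Tgtp2, the regulatory share still changed by -15.9 percentage points. The 6 other IRG genes of the same clusters, described further on, held 15.3 ± 0.913 FPKM in the controls and 47.3 ± 0.487 with SA@BATMAN5, a ratio of 3.10. With them in the total, a sum added after values had been seen, the regulatory share was 52.2% ± 0.598 in the controls and 50.9% ± 0.440 with SA@BATMAN5, a change of -1.32 percentage points (exact permutation p = 0.1). In counts in place of FPKM the same wider share was higher with SA@BATMAN5 in every library, going from 42.6% ± 1.04 to 49.0% ± 0.310. The 4 effector members went from 12.5% ± 0.344 to 34.0% ± 0.146 of the wider FPKM total, and the 6 other genes from 35.3% ± 0.767 to 15.2% ± 0.320.

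**Figure D2:**
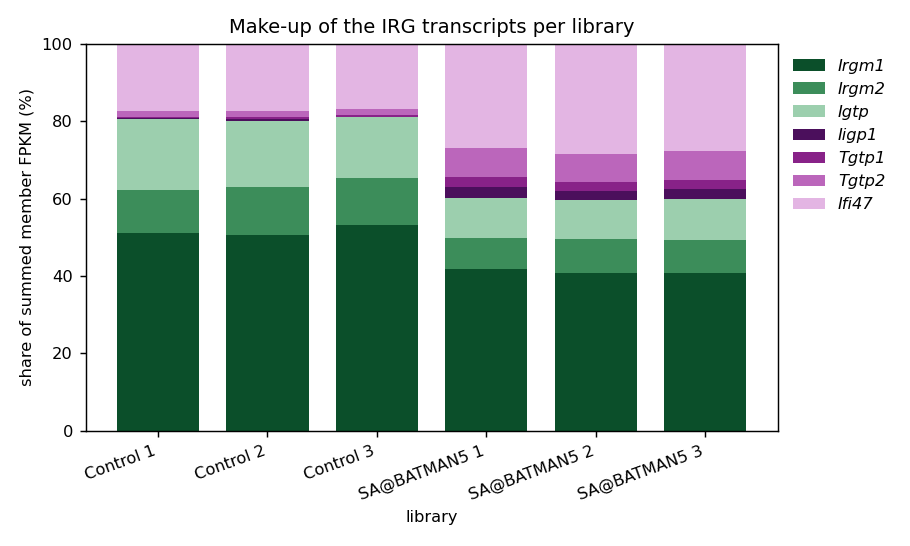
Share of summed member FPKM (percent) held by each IRG member, as stacked bars for the 6 libraries, with the regulatory class in green and the effector class in purple. Green takes about the same part in all libraries of a group, and it is smaller in the SA@BATMAN5 bars, where Ifi47 and Tgtp2 take more. The 6 other IRG genes of the clusters are not in these totals, and with them the regulatory share hardly differs between the groups (52.2% and 50.9%).

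Neighbours in the order of change were compared through the log2 ratio of their CPM in each library, which made 6 pairs. The order came from the same libraries, so the direction of each difference was set beforehand. The p-values below therefore do not test the order, and the sizes of the shifts are a description. From control to SA@BATMAN5 the ratio of Ifi47 to Irgm1 moved by 1.00, of Tgtp2 to Ifi47 by 1.54 and of Iigp1 to Tgtp1 by 1.30. The ratios of Irgm1 to Irgm2 and of Irgm2 to Igtp moved by 0.21 and 0.23. In those 5 pairs the groups did not overlap (two-sided exact permutation p = 0.1 each, the smallest possible, 0.12 adjusted over the 6 pairs). The ratio of Tgtp1 to Tgtp2 moved by 0.23 with overlapping groups (exact permutation p = 0.4, adjusted 0.4). Each member was also set against the summed FPKM of the other members. These 7 ratios are built from the same genes, so they depend on each other and are not separate results. All 3 regulatory genes fell in relative level and all 4 effectors rose, without overlap (exact permutation p = 0.1 each, 0.1 adjusted over the 7). With the 6 other genes in the sum the 4 effectors kept that direction, while Irgm1 changed sign (0.09, exact permutation p = 0.3) and Irgm2 moved by -0.09 (p = 0.3). The largest such shift was 4.09 on the log2 scale for Iigp1, and Igtp dropped by 0.83.

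A list of other IRG-type genes had 8 rows in the table, all tested. Of these 6 rose, 1 fell and 1 did not pass, and their median log2 fold change was 1.70. The shares over all tested genes were 29.5% higher and 28.7% lower. On chromosome 18, where Iigp1 lies, Gm4951 (Ifgga2) went from 1.46 ± 0.0506 to 14.8 ± 1.34 CPM (log2 fold change 3.33 ± 0.13) and F830016B08Rik (Ifgga4) from 0.231 ± 0.0985 to 4.02 ± 0.386 CPM (4.08 ± 0.32). Gm4841 (Ifgga3) had 3 control counts, all in replicate 3, and 57 treated counts, a ratio of 25.4 with an exact 95% counting interval of 8.26 to 127. On chromosome 11, Gm5431 had FPKM values of 5.51, 5.11 and 5.22 in the controls and 22.3, 22.6 and 21.6 with SA@BATMAN5, where Irgm2 had 22.2 to 23.2. The log2 fold change of Gm5431 was 2.15 ± 0.05, below those of all regulatory members. The genes 9930111J21Rik2 (Irgb5) and 9930111J21Rik1 rose still less, with log2 fold changes of 1.25 ± 0.05 and 1.03 ± 0.08. Both were already at 5.23 FPKM or more and 3.66 FPKM or more in every control library. How far these copies share reads with each other was not tested.

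The IRG genes outside these clusters, both on chromosome 7, did not follow. Irgc1, known from mouse testis, fell from 1.01 ± 0.376 to 0.258 ± 0.111 CPM, a log2 fold change of -1.96 ± 0.47 (adjusted p 0.00201, edgeR). Its libraries held 63, 24 and 52 counts in the controls and 5, 8 and 13 with SA@BATMAN5, so the value rests on few reads. Irgq, a GTPase-like gene that is not induced by interferon, stood at 17.6 ± 0.424 and 18.6 ± 0.725 CPM with overlapping groups (log2 fold change 0.08 ± 0.07, adjusted p 0.364). Gm12250 (Irgb10) was not analysed here.

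**Figure D3:**
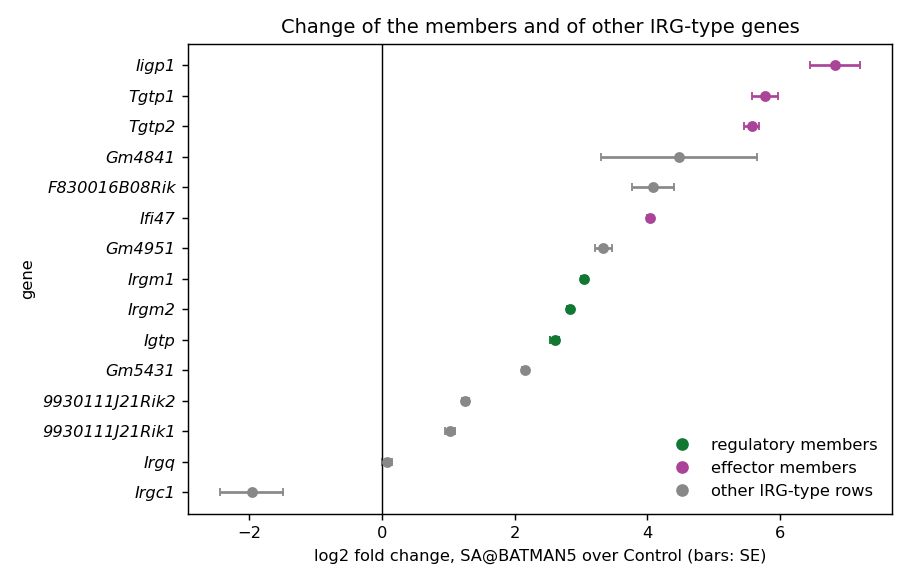
Log2 fold change, SA@BATMAN5 over control, with SE bars, of the 7 members and 8 other IRG-type genes, in order of change. The 4 effector members lie to the right of the 3 regulatory members, Irgq lies near 0 and Irgc1 to the left of it. Gm5431, 9930111J21Rik2 and 9930111J21Rik1, cluster genes outside the regulatory class, lie to the left of the regulatory members. The order of the classes thus depends on which genes are counted as members. The value of Gm4841 rests on 3 control counts.

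The change was then followed along the chromosome, a comparison added after values had been seen. Gene order was taken from RefSeq (GRCm38.p6, another build than the authors'), and no positions are used. All 13 tested IRG genes of the 3 clusters rose, with log2 fold changes from 1.03 to 6.83. The 3 nearest tested genes on each side of each cluster made 18 flanking genes. Of these 7 rose, 3 fell and 8 did not pass, against 29.5% higher and 28.7% lower over all tested genes. The flanking genes had a median log2 fold change of 0.12. On the side of Igtp, the cluster of Igtp and Irgm2 is flanked by Mrpl22, the nearest, then Gemin5 and Cnot8. Mrpl22 and Gemin5 had log2 fold changes of -0.04 ± 0.07 and 0.03 ± 0.08 and did not pass, and Cnot8 rose by 0.27 ± 0.06. Zfp692, the nearest tested gene on the side of Irgm2, fell from 8.11 ± 0.234 to 5.56 ± 0.646 CPM. Between Irgm1 and Ifi47 lie 2 other tested genes, and both rose. Psme2b, a relative of a proteasome activator gene with which it may share reads, went from 34.4 ± 1.07 to 171 ± 7.73 CPM. Gm12185, the other holder of the joined GAS and ISRE letters, went from 1.71 ± 0.512 to 4.52 ± 0.310 CPM (log2 fold change 1.39 ± 0.22). The strand setting of the counting is not stated, so reads of overlapping neighbours cannot be told apart.

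**Figure D4:**
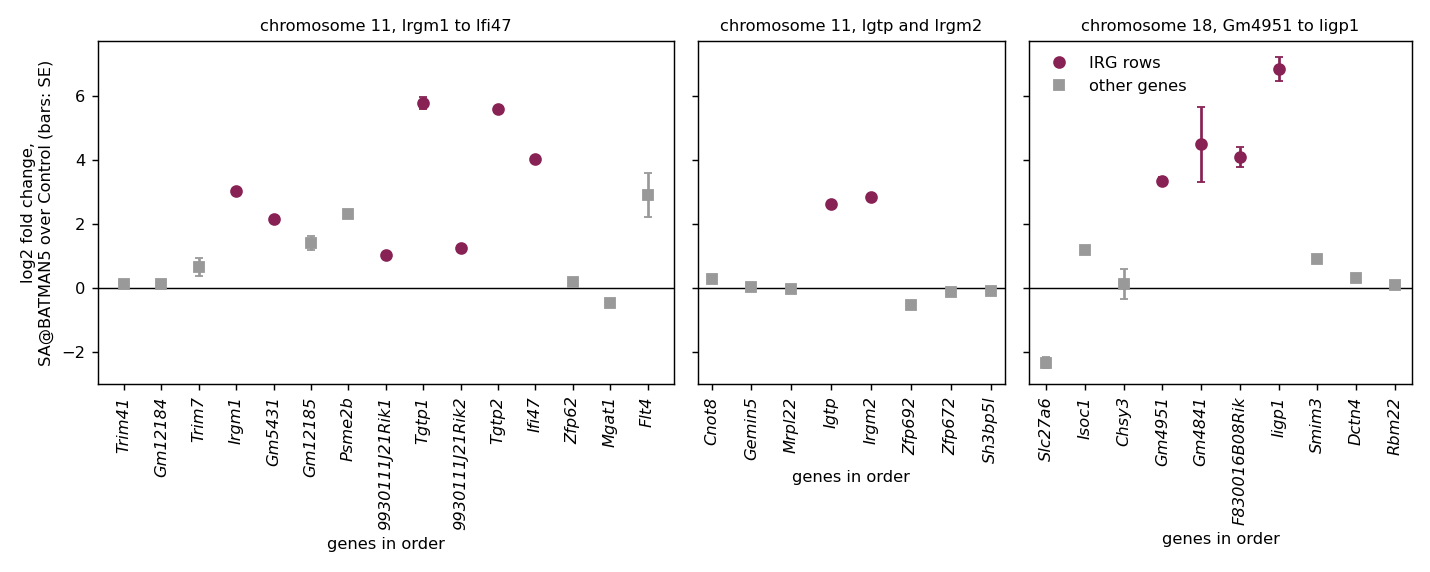
Log2 fold change, SA@BATMAN5 over control, with SE bars, along the 3 IRG clusters, with genes in chromosome order and evenly spaced. IRG genes (circles) stand above 1 in each cluster. Squares are all other genes: Psme2b (2.32) and Gm12185 (1.39), which lie within the first cluster, and the flanking genes. Most flanking genes lie near 0, and among them Flt4, Isoc1 and Slc27a6 lie furthest from it.

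Most genes of the signalling list were higher with SA@BATMAN5. The list holds genes that lead to IRG transcription and also inhibitors such as Socs1 and Usp18. Of 15 interferon receptor and STAT signalling genes 12 rose, 2 fell and 1 did not pass. Their median log2 fold change was 0.59. The shares over all tested genes were 29.5% higher and 28.7% lower. Irf1, an ISRE-binding factor, went from 37.2 ± 2.34 to 143.6 ± 2.43 CPM, and Usp18, which restrains type I interferon receptor signalling, from 7.59 ± 0.348 to 99.1 ± 4.78 CPM. The genes that fell, named after their values were seen, were Ifngr1, the ligand-binding chain of the interferon gamma receptor, from 264.5 ± 6.84 to 104.3 ± 1.28 CPM, and Socs1, an inhibitor of JAK kinases, from 20.7 ± 1.18 to 10.8 ± 0.646 CPM. Ifngr2, the partner chain, rose by 0.41 ± 0.03 on the log2 scale.

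Interferon transcripts themselves were scarce at this 24-hour time point. None of the 21 interferon ligand genes passed the filter on low counts, and 14 had no count in any library. Ifng had 0 counts in all control libraries and 10, 5 and 16 counts with SA@BATMAN5. A control group at 0 allows up to 3 counts over its 3 libraries together. Set against that floor, Ifng was 13.8-fold higher, which leaves out the counting error of the few treated counts. Ifnb1 had 0 counts in the controls and 5, 0 and 5 with SA@BATMAN5, so the groups overlapped.

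The ATG8 and ubiquitin lists held genes that moved in both directions. The ATG8 conjugation machinery, by which ATG5, ATG7, ATG12, ATG16L1 and ATG3 mark membranes so that mouse IRG effectors find the right one, had 4 genes higher, 4 lower and 3 that did not pass among 11, with a median of -0.09. Over all tested genes 29.5% were called higher and 28.7% lower, and 4 of 11 in each direction lies near that. Gabarapl1 went from 247.6 ± 0.549 to 186 ± 7.77 CPM and Atg7 from 94.0 ± 4.76 to 67.4 ± 2.59 CPM, while Atg5 went from 53.0 ± 3.41 to 76.4 ± 2.83 CPM. The 4 higher calls were not stable. They became 1 without control replicate 3 and 2 without any of the other 5 libraries, and 1 with library totals only. Of 9 ubiquitin and adaptor genes of the vacuole 6 rose, 2 fell and 1 did not pass (median 0.34). Rnf213, a giant ubiquitin ligase that coats intracellular microbes, went from 95.6 ± 1.32 to 894.7 ± 29.7 CPM, and Sqstm1, a ubiquitin-binding adaptor, had a log2 fold change of 1.67 ± 0.03.

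Other interferon-inducible GTPases rose with the IRG genes, and 29.5% of all tested genes were called higher. Of 11 guanylate-binding protein genes, which act with IRG effectors at the vacuole, 10 were tested and all 10 rose. Their median log2 fold change was 5.69, and it stayed there when Gbp10, at 0 control counts, was set to its bound. Gbp2 went from 22.6 ± 2.04 to 1373 ± 52.2 CPM and Gbp3 from 8.95 ± 0.523 to 393.8 ± 12.1 CPM. All 4 tested genes of the Mx and very large GTPase list rose, among them Mx1, from 9.28 ± 0.520 to 322.7 ± 25.0 CPM, and Gvin2, from 76.8 ± 4.61 to 357.9 ± 5.79 CPM. Reads of related Gbp and Gvin genes may be divided among paralogs.

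**Figure D5:**
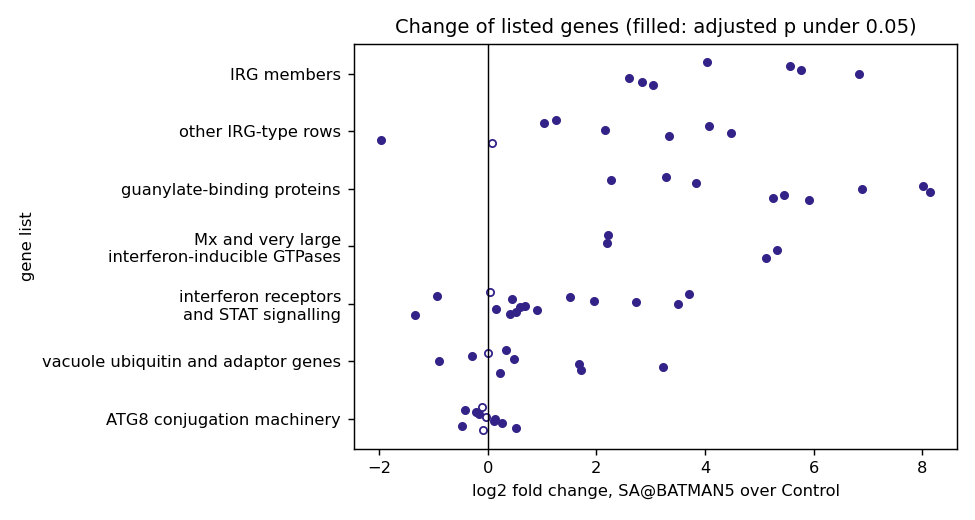
Log2 fold change, SA@BATMAN5 over control, of the tested genes of each list, with filled points for an adjusted p under 0.05 (edgeR) and open points otherwise. The GTPase families lie right of 0 apart from Irgc1, with Irgq close to 0, while the signalling, ubiquitin and ATG8 lists spread to both sides. Gbp10, with 0 control counts, is left out.

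The genes whose change was most like the mean of the members were found by distance over the 6 libraries, between log2 CPM (pseudocount 0.5) less its control mean. Among 12468 named candidates the 5 nearest were Ifi211, Mndal, Oas3, Phf11a and C1s1, at distances from 0.184 to 0.263. Ifi211 and Mndal, DNA-binding proteins of the PYHIN family, went from 43.9 ± 1.17 to 644.5 ± 15.2 CPM and from 26.6 ± 1.10 to 418.9 ± 12.3 CPM. Oas3, an oligoadenylate synthetase, had a log2 fold change of 3.81 ± 0.03, and C1s1, a complement protease, of 4.74 ± 0.18.

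Markers of macrophages and of other cells were read in the same libraries, because in bulk RNA fewer cells of a type and less RNA per cell cannot be told apart. The marker counts that follow stand beside 29.5% called higher and 28.7% lower over all tested genes. All 8 macrophage markers were tested, 5 rose and 3 fell. Adgre1 (the F4/80 antigen) and Csf1r were higher by 1.74 ± 0.04 and 0.87 ± 0.03 on the log2 scale. Itgam (2281 ± 71.1 to 1706 ± 4.28 CPM), Cd68 (1506 ± 24.1 to 1272 ± 12.9 CPM) and C1qa (157.8 ± 11.04 to 112.5 ± 2.31 CPM) fell. The summed level of all 8 was 15690 to 15850 CPM in the controls and 21840 to 22110 CPM with SA@BATMAN5, and most of it was Lyz2, which went from 9767 ± 29.9 to 13841 ± 164 CPM. Of the 13 T, NK and B cell markers 12 are in the table, and 3 were tested, of which 2 (Klrb1c and Cd79a) rose. Cd79a was at the threshold (adjusted p 0.0498, edgeR), with 12, 3 and 5 counts in the controls and 10, 11 and 19 with SA@BATMAN5. Cd3d, Cd3e, Cd3g and Ncr1 were at 0 in all libraries, and the summed level of the list was 3.47 to 5.40 CPM in the controls and 6.96 to 10.5 CPM after treatment. That sum includes Ms4a1, untested, with 87 counts in SA@BATMAN5 replicate 3 and 0 in the other treated libraries. Of 8 stromal markers 5 (Pdgfrb and Dcn with the smallest p) rose and 1 of the 6 tested did not pass, Lum was at 0, and the summed level was 752 to 936 CPM and 1077 to 1240 CPM. Of 8 neutrophil markers all 3 tested rose. S100a8 went from 5.63 ± 0.104 to 61.7 ± 4.96 CPM, Camp from 0.0138 ± 0.0238 to 0.726 ± 0.0783 CPM and S100a9 from 1.73 ± 0.238 to 3.10 ± 0.378 CPM. Elane, untested, had 3, 0 and 4 counts in the controls and 0 in the treated libraries. Ly6g, Mpo, Ctsg and Retnlg were at 0, and the sum was 7.25 to 7.77 CPM in the controls and 60.0 to 70.8 CPM with SA@BATMAN5. Of 7 dendritic cell markers 1 of the 4 tested (Ccr7) rose, from 0.0894 ± 0.00947 to 3.27 ± 0.377 CPM. The other tested markers did not pass. Their log2 fold changes were -0.82 for Clec9a (adjusted p 0.0530, edgeR), -0.27 for Zbtb46 and -0.17 for Xcr1. Flt3, Siglech and Cd209a were at 0. The sum was 4.74 to 5.12 CPM in the controls and 6.63 to 7.58 CPM with SA@BATMAN5, higher through Ccr7 alone. The part of these cells, and of Ifng from any of them, in the levels of the IRG genes was not tested. Depth also differed between the groups, and with every library thinned to the shallowest the median log2 fold change of the members was 4.08.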

How the data were processed

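The deposited table holds, per the file headers, the authors' whole-number counts per gene and their FPKM values. GRCm39, StringTie 2.1.2, HISAT2 2.2.0 and DESeq2 1.26.0 appear in the submitters' processing notes. Which tool counted, on which annotation and with which strand setting, is not given in the sources used here. Columns named S-5 were read as SA@BATMAN5 and those named N as the controls, which is a reading of the names. Of 23034 genes, filterByExpr (minimum count 10, minimum total 15) kept 13474, including 674 loci assembled without a name. TMM factors were applied, and group was the sole term of the two-sided quasi-likelihood test of edgeR 4.0.16 (glmQLFit, glmQLFTest; R 4.3.3), with Benjamini-Hochberg adjustment at 0.05. Standard errors came from the fitted weights. The common biological coefficient of variation was 6.91%. Ratios within the family were tested with exact permutation over libraries (scipy 1.17.1). Chi-square per degree of freedom was 4.56 to 7.80 between libraries of a group, above sampling noise, and each library counted as 1. The procedure was tested on simulated data. The authors' own comparisons were not used.

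Members, gene lists and tests were chosen with earlier results of these data known. Named are all members, the other IRG-type genes, the 2 genes of each list with the smallest p, Irf1, Ifnb1 and Ifng, and the 5 genes most like the members. The other genes named, chromosome neighbours and markers included, were chosen after their values were seen or by position. Alternatives were library totals only, size factors of DESeq2, upper-quartile factors, TMM without the 100 most abundant genes, no filter, a filter at 1 CPM in 3 libraries, the DESeq2 1.42.0 Wald test, limma 3.58.1 (voom, and log2(FPKM + pseudocount) with 1 or 0.1), a test against 2-fold, the replicate number as a block, thinning to the shallowest library, the Tgtp pair summed, and each library left out in turn. Promoters were aligned with Biopython 1.88. Figures were drawn with matplotlib 3.10.9. A result on 1 item withheld for evaluation is not reported here.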

Additional observations from a re-analysis of the deposited data

How the results depend on the processing

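All 7 members stayed higher in 19 of 20 alternatives, and in the other, with the Tgtp pair summed, all 6 remaining features were higher. Fold changes of low genes shrank with the pseudocount: Iigp1 changed by 2.86 and Tgtp1 by 2.74 with log2(FPKM + 1), and by 5.48 and 4.85 with log2(FPKM + 0.1). With the 6 other IRG cluster genes in the total, added after seeing the data, the regulatory share changed by -1.32 percentage points (6.44 in counts), and Irgm1's log2 ratio to the rest reversed to 0.0882. Against a 2-fold change, 905 genes were called higher and 591 lower. Under that test the signalling list had 5 higher and 1 lower, the ubiquitin and adaptor list 3 and 0, the ATG8 list 0 and 0, and the other IRG-type list 0 lower, as it had with a filter at 1 CPM, which removes Irgc1. The higher calls in the ATG8 list became 1 with library totals only, upper-quartile factors or limma on either FPKM scale, 2 with no filter or the DESeq2 Wald test, and 1 to 2 when a library was left out. The cause was not tested. Irgq changed sign with upper-quartile factors (-0.0047). With the replicate number as a block, 3927 genes were higher and 3818 lower and 7 members were higher, and no call on a member or list count changed by over 1.5 times. Same-numbered libraries did not deviate together over genes (r from -0.004 to 0.02, against -0.036 to 0.019 for the other pairs). With 3 libraries per group this cannot tell whether they share an animal, culture or batch. Depth limits Iigp1, Tgtp1, Gm4841 and the interferon genes in the controls.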
